A study of Mus musculus with 32 samples.

Results

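The tumours described here are the 8 lymphomas with the highest and the 8 with the lowest level of S100a9 among 32 Eµ-myc mouse lymphomas, chosen by ranking all 32 on the log2 value of the S100a9 probe set. All 32 tumours carried the Eµ-myc transgene, in which the immunoglobulin heavy chain enhancer drives Myc in B lineage cells, and the labels name no other genotype, no treatment, no age and no control group. RNA came from lymphoma tissue or from dissociated lymphoma cells, without a label that ties either source, or a mouse, to a tumour, so that some tumours may share an animal and the p-values would then be too small. Each tumour had 1 Affymetrix Mouse430_2 array, so the spread between tumours may in part be technical, and the number of arrays limits the precision. Tumours are named by their number in the labels.

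S100a9 and S100a8 encode the paired calcium-binding proteins that make up much of the cytosol of neutrophils, and monocytes also make them. Neutrophils mature in the bone marrow through stages that load different granules. Promyelocytes make the primary granule enzymes (myeloperoxidase, elastase, proteinase 3, cathepsin G), myelocytes and metamyelocytes make secondary granule proteins (lactoferrin, cathelicidin, lipocalin 2), and mature cells switch to receptors such as Cxcr2. Granule transcripts are therefore carried mainly by immature cells, while the proteins stay in the mature ones. In a bulk tumour sample, fewer cells of a type and less RNA per cell cannot be told apart.

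Across the 32 tumours S100a9 ranged over 6.92 log2 units. The S100a9-high set was made up of tumours 20 (11.55), 3 (11.31), 4 (11.24), 16 (11.15), 1 (11.03), 25 (10.31), 28 (9.87) and 30 (9.74). The S100a9-low set was made up of tumours 15 (6.10), 22 (6.003), 11 (5.78), 7 (5.77), 14 (5.71), 8 (5.19), 29 (4.94) and 19 (4.64). Just outside the sets lay tumour 9 at 9.55, rank 9, and tumour 26 at 6.47, rank 24, so the upper boundary cut through a run of close values. The mean was 10.78 ± 0.70 (SD, n = 8) in the high set and 5.52 ± 0.53 (SD, n = 8) in the low set, a difference that the ranking itself produced and that was not tested. S100a8 ran from 10.16 through a median of 11.51 to 11.79 in the high set, from 7.14 through 9.38 to 10.20 in the 16 tumours between the sets, and from 5.06 through 6.33 to 7.30 in the low set. Ranking the tumours by S100a8 gave 7 of the same 8 high tumours and 7 of the same 8 low ones. Comparing those sets, with S100a8 left out of the fit, gave 16 higher genes, S100a9 among them (0.088%), and 3 lower (0.0165%). Of the 16, 13 were shared with the S100a9 sets.

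**Figure D1:**
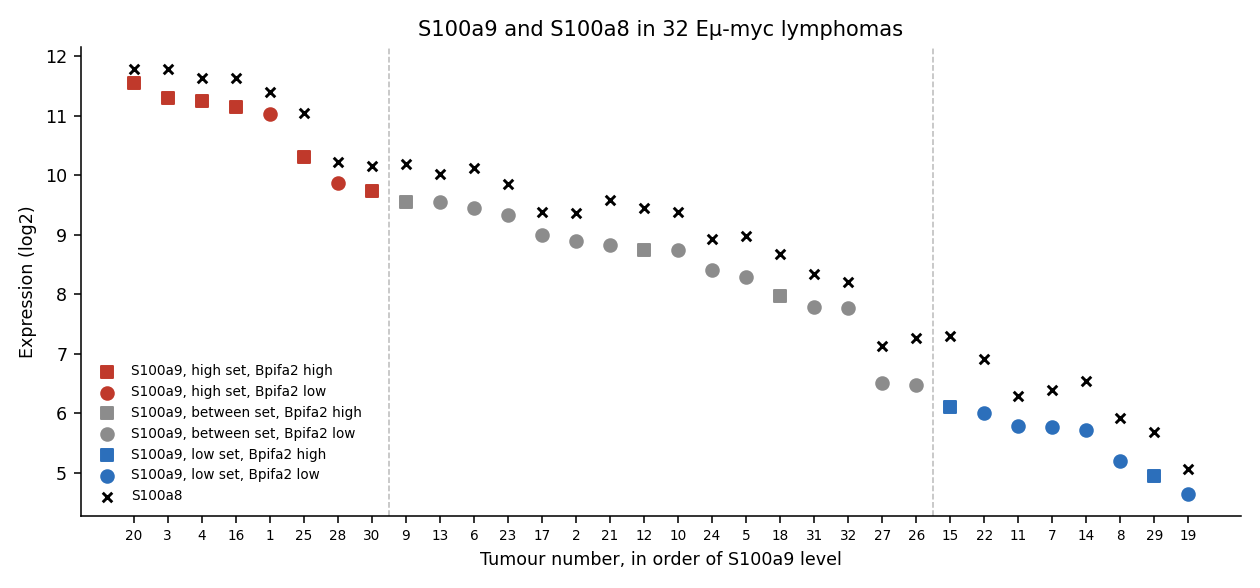
Log2 levels of S100a9 (squares and circles) and S100a8 (crosses) in the 32 tumours, in order of S100a9; dashed lines bound the sets, and squares mark tumours with a high level of the salivary transcript Bpifa2. S100a8 follows S100a9 closely, and 6 of the 8 high tumours against 2 of the 8 low ones are squares.

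Over all other genes, 17 of 18192 were higher in the S100a9-high set (0.0934%) and 2 were lower (0.011%), by limma with a Benjamini-Hochberg adjusted p under 0.05. S100a8 is among the 17. The median difference over all genes tested was 0.0035 on the log2 scale, and 1778 genes had an unadjusted p under 0.05, of which 1075 were higher and 703 lower. With a filter that kept 11226 genes at or above the median probe set level, 11 were higher (0.098%) and 1 lower (0.00891%). Of the 17 higher genes, 14 were among the 71 measured genes of the 3 granulocyte lists, and 3 (Tnfsf13b, Mmp3 and Pi16) were not. The high and low sets did not overlap for 14 of the 17, against 0.11% of all genes tested that lay entirely higher, a share that includes these 14. The 17 were called on the same 16 tumours, so this separation follows largely from the selection and adds no support. In 17 of 17 the median of the 16 tumours between the sets fell between the medians of the sets. Genes called for a difference between the extremes were likely to show this, and the share over all genes was not counted, so it adds no support either. Because the sets were formed on S100a9 measured on the same arrays, these tests say which genes went with S100a9 over these 16 tumours.

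Genome sequence upstream of 4 of the higher genes is shown here because granule genes are textbook targets of C/EBP and PU.1, the factors of granulocyte development. Each is the 250 bases before the annotated start in RefSeq on GRCm38.p6, written 5′ to 3′ along the gene's strand, with matches to TTGCNNAA (C/EBP) or GAGGAA (PU.1) on either strand in capitals. The motifs were chosen after the results were known. Each of the 4 genes shown holds a match, which not all of the higher genes do. Ngp lies at chr9:110419558-110419807 on the plus strand, Ltf at chr9:111019042-111019291 on the plus strand, Lcn2 at chr2:32387740-32387989 on the minus strand and Mpo at chr11:87793534-87793783 on the plus strand.
Ngp: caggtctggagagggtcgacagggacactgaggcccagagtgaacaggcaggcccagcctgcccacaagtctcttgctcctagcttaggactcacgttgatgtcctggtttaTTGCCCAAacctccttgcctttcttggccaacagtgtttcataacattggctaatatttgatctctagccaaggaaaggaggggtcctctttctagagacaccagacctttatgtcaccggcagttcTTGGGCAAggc
Ltf: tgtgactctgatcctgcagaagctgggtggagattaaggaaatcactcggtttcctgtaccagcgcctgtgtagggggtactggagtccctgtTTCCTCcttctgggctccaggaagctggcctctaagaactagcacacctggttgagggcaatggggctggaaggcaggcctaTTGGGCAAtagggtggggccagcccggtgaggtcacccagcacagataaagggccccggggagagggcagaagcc
Lcn2: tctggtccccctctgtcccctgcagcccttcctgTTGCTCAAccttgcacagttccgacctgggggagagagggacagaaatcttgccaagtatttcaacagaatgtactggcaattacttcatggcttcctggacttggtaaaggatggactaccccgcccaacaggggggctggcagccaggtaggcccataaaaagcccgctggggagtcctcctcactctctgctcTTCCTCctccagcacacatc
Mpo: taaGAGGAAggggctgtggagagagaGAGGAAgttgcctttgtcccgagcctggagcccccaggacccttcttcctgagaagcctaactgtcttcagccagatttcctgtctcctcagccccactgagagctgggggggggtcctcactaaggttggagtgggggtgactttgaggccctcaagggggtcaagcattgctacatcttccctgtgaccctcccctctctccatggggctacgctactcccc
Promoters were found for 17 of the 17 higher genes. In windows of 300 bases, 250 before and 50 after the start, GAGGAA occurred in 11 of the 17, against 28.1% of 32544 mouse promoters. TTGCNNAA occurred in 5 of the 17, against 10.8%, and AGATAA, a letter string read by GATA factors of the red cell and platelet lineages, in 4 of the 17, against 11.2%. No match of one motif overlapped a match of another (0 overlaps in the 17). Of the 17, 4 held neither TTGCNNAA nor GAGGAA, namely Camp, Chil3, Ifitm6 and Tnfsf13b. A match is a string of letters and no evidence of binding. By position on GRCm38.p6, Elane and Prtn3 are neighbours on chromosome 10 with 0 protein-coding genes between them, as are S100a8 and S100a9 on chromosome 3, while Camp, Ngp and Ltf lie on chromosome 9 with 8 and 20 protein-coding genes between them in turn.

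Among the genes called, the largest differences after S100a8 were those of secondary and tertiary granule genes. Of 26 measured, 8 were higher and 0 lower, with a median difference of 0.45 over the list. Ngp, a cathelicidin-related granule protein, ran from 9.12 through a median of 10.59 to 11.07 in the high set and from 5.22 through 6.26 to 6.78 in the low set. Every high tumour lay above every low tumour, and the difference was 3.98 ± 0.30 log2 (SE), a 15.8-fold difference with a limma adjusted p of 4.74e-06. Chil3, a chitinase-like protein also made by macrophages, ran from 7.87 through 8.55 to 9.29 in the high set and from 4.002 through 4.65 to 6.89 in the low set, again without overlap (3.52 ± 0.35, limma adjusted p = 1.70e-04). Camp, the cathelicidin antimicrobial peptide, ran from 7.22 through 9.03 to 9.67 against 5.51 through 6.08 to 6.41, without overlap (2.70 ± 0.30, limma adjusted p = 3.01e-04).

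Ltf, lactoferrin, an iron-binding protein, ran from 6.55 through 8.44 to 8.87 in the high set and from 5.10 through 5.51 to 5.68 in the low set (2.64 ± 0.29, limma adjusted p = 3.01e-04). The low tumours were close together and the high tumours spread over more than 2 log2 units. Lcn2, which binds bacterial iron carriers, ran from 6.61 through 8.39 to 8.92 against 4.33 through 5.22 to 6.62, and the sets touched at tumour 28 (6.61) and tumour 11 (6.62); the difference was 2.78 ± 0.37 with a limma adjusted p of 0.0025. Pglyrp1, a peptidoglycan recognition protein, differed by 1.18 ± 0.18 (limma adjusted p = 0.012), Mmp8, the neutrophil collagenase, by 1.01 ± 0.16 (limma adjusted p = 0.012), and Cd177, a neutrophil surface protein, by 1.32 ± 0.24 (limma adjusted p = 0.047). The Cd177 call was the least stable of these 3 when 1 tumour was left out, passing in 3 of the 16 fits. Pglyrp1 and Mmp8 passed in 16 of 16. None of the 3 passed with the salivary transcript Bpifa2 as a covariate. The filter at the median level left all 3 out, since their mean levels were lower (Pglyrp1 5.54, Mmp8 5.26, Cd177 4.65).

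The other 18 measured members of the list were not called. Among them, Mmp9, gelatinase, differed by 0.16 (95% interval -0.39 to 0.71), with the highest value of either set, 7.44, in the low tumour 8. Cybb, the oxidase subunit shared by phagocytes and B cells, differed by -0.01 (95% interval -0.98 to 0.96), and Hp, haptoglobin, by 0.34 (95% interval -0.59 to 1.27). Cybb was named after its values were seen.

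**Figure D2:**
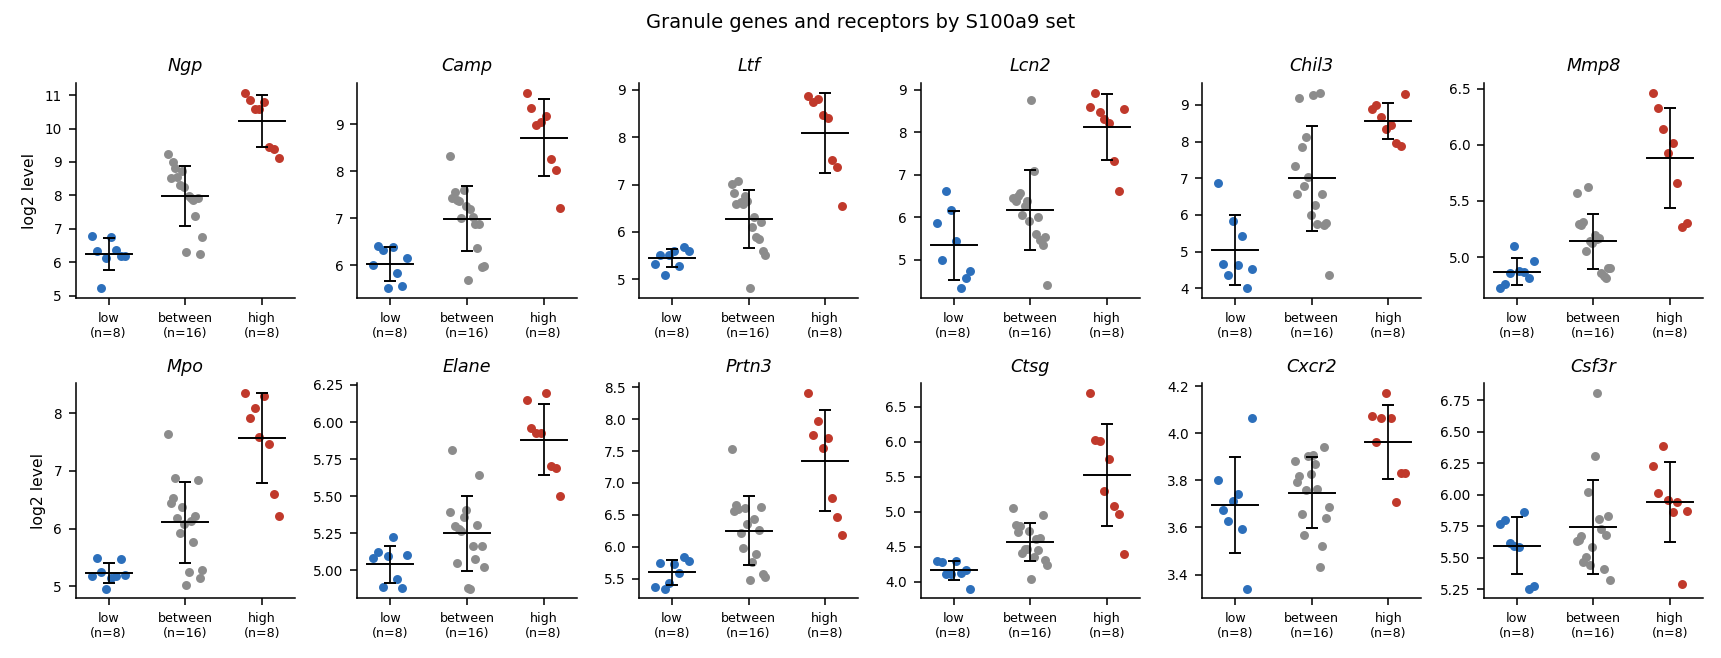
Log2 levels of 10 granule genes and of the receptors Cxcr2 and Csf3r in the low, between and high sets (points, 1 tumour each; line and bars, mean ± SD); each panel has its own axis. The 10 granule genes shown were all called, and they separate the low and high sets apart from the touching values of Lcn2. Of the measured granule genes, 18 of 26 secondary and tertiary and 9 of 13 primary ones were not called. The receptor panels overlap.

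Of 13 measured primary granule and promyelocyte genes, 4 were higher and 0 lower, and the list's median difference was 0.72. Mpo, myeloperoxidase, ran from 6.23 through 7.76 to 8.34 in the high set and from 4.96 through 5.18 to 5.50 in the low set, without overlap (2.33 ± 0.27, limma adjusted p = 3.61e-04). Elane, neutrophil elastase, ran from 5.50 through 5.93 to 6.19 against 4.88 through 5.09 to 5.22, a smaller but equally separated difference (0.84 ± 0.09, limma adjusted p = 3.24e-04). Prtn3, proteinase 3, ran from 6.18 through 7.63 to 8.41 against 5.35 through 5.66 to 5.84 (1.75 ± 0.27, limma adjusted p = 0.012). Ctsg, cathepsin G, ran from 4.40 through 5.53 to 6.69 against 3.90 through 4.14 to 4.30 (1.37 ± 0.25, limma adjusted p = 0.042), and it passed in 4 of the 16 fits that left out 1 tumour. Ms4a3, a marker of granulocyte and monocyte progenitors, differed by 0.61 (95% interval 0.25 to 0.97) and did not pass (limma adjusted p = 0.31).

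Within the high set the granule genes were not uniform. Tumour 30 had the lowest value of the 8 in 10 of the 17 higher genes, tumour 28 in 6 and tumour 1 in 1, while tumour 20 had the highest in 8. In tumour 30, Camp was 7.22, Ltf 6.55 and Mpo 6.23, but Chil3 was 9.29, the highest of the set, and Lcn2 was 8.53. Tumours 25, 28 and 30 had the lowest S100a9 values of the set and also the 3 lowest values of Ngp, Camp, Ltf, Mpo, Elane, Prtn3 and Ctsg.

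Of 32 measured genes of the mature neutrophil, 2 were higher (S100a8 and Ifitm6) and 0 lower, with a median difference of 0.27. Whether this share differs from that of the granule lists was not tested. Ifitm6, of the interferon-induced transmembrane family, ran from 6.34 through 7.30 to 7.80 in the high set and from 4.35 through 5.30 to 5.84 in the low set, without overlap (2.08 ± 0.23, limma adjusted p = 3.01e-04). Cxcr2, the receptor for neutrophil-attracting chemokines, ran from 3.71 through 4.01 to 4.17 against 3.34 through 3.69 to 4.07 (0.27, 95% interval 0.08 to 0.46, limma adjusted p = 0.37). Csf3r, the G-CSF receptor, differed by 0.35 (95% interval 0.07 to 0.63, limma adjusted p = 0.40), and its sets overlapped. Il1b, a cytokine made by neutrophils and macrophages, differed by -0.11 (95% interval -0.53 to 0.32). Neither receptor was called. Cxcr2 lay below the median probe set level (5.78) in every tumour of both sets. A low level alone did not prevent a call, since Cd177 (4.65), Ctsg (4.70) and Elane (5.36) were called with mean levels below that median. Whether the low level of Cxcr2 accounts for its missing call was not tested. The calls that go with the name neutrophil-rich are 8 of 26 secondary and tertiary granule genes, 4 of 13 primary granule genes and Ifitm6. Against these, 30 of the 32 mature neutrophil genes were not called, and granule transcripts are carried mainly by immature cells. The lists were chosen with earlier results of these data known, so these calls do not establish the name. S100a9 ranked the tumours and adds nothing to that name.

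Among 28 measured neutrophil attractants and growth factors 0 were called in either direction, with a median difference of 0.04. Csf3, which encodes G-CSF, differed by 0.10 (95% interval -0.03 to 0.23) and Cxcl1, a neutrophil chemokine, by 0.00 (95% interval -0.12 to 0.12). Cxcl2, a related chemokine, was 7.52 in tumour 30 and at most 3.69 in the other 15 tumours. Cxcl12, which holds neutrophils and B cell precursors in the marrow, differed by 1.81 (95% interval 0.44 to 3.17) and did not pass (limma adjusted p = 0.38).

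Other granulocyte lineages had 0 calls among 17 measured eosinophil, basophil and mast cell genes, with a median difference of 0.08. Prg2, eosinophil major basic protein, differed by 0.44 (95% interval 0.21 to 0.67, limma adjusted p = 0.23), and Cpa3, the mast cell carboxypeptidase, by 0.32 (95% interval 0.16 to 0.48, limma adjusted p = 0.23). Among 22 haematopoietic progenitor genes 0 were called, and Cd34, a progenitor and vessel marker, differed by 0.58 (95% interval -0.10 to 1.27).

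Of 52 measured erythroid genes, 0 were called in either direction, 33 differences lay above 0 and 19 below, and the median was 0.06. Alas2, the red cell enzyme that starts haem synthesis, ran from 5.01 through 5.51 to 6.73 in the high set and from 4.57 through 5.09 to 6.81 in the low set (0.39, 95% interval -0.26 to 1.05). Its highest value of all 16 was in the low tumour 22. Slc4a1, the red cell anion exchanger, differed by 0.37 (95% interval -0.11 to 0.85), Klf1, an erythroid transcription factor, by 0.08 (95% interval -0.09 to 0.26), and Epor, the erythropoietin receptor, by 0.19 (95% interval 0.02 to 0.35, limma adjusted p = 0.45). Car2, carbonic anhydrase 2, reached 11.03 in the high tumour 25 and 10.63 in the low tumour 8.

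Of 39 measured megakaryocyte and platelet genes, 0 were called and the median difference was 0.12. Pf4, platelet factor 4, ran from 6.82 through 7.66 to 10.47 in the high set and from 6.45 through 7.69 to 8.35 in the low set (0.48, 95% interval -0.40 to 1.36). Ppbp, a platelet chemokine, ran from 4.29 through 4.47 to 5.97 against 3.66 through 3.83 to 3.98, so that the sets did not overlap, yet the difference of 0.94 (95% interval 0.48 to 1.40) did not pass (limma adjusted p = 0.21). The high values of Ppbp were in tumours 1 (5.97) and 20 (5.60). Itga2b, the platelet integrin subunit, differed by 0.12 (95% interval -0.03 to 0.27) and Gp9, part of the von Willebrand factor receptor, by 0.08 (95% interval -0.06 to 0.23).

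Of 47 measured macrophage genes 0 were called, although 43 of the 47 differences lay above 0 and their median was 0.41, against 51.3% above 0 over all genes. C1qa, a complement component made by macrophages, ran from 8.98 through 10.22 to 12.34 in the high set and from 9.58 through 10.13 to 11.10 in the low set (0.29, 95% interval -0.48 to 1.06). Adgre1, a surface receptor of tissue macrophages, ran from 6.90 through 8.08 to 9.75 against 5.70 through 7.18 to 8.20 (0.86, 95% interval 0.03 to 1.70, limma adjusted p = 0.50). Csf1r, the macrophage growth factor receptor, differed by 0.43 (95% interval -0.36 to 1.22), Cd68, a lysosomal glycoprotein, by 0.59 (95% interval -0.14 to 1.31), and Slc40a1, the iron exporter of red pulp macrophages, by 0.74 (95% interval 0.12 to 1.36, limma adjusted p = 0.42). Tumour 30 had the highest value of the high set in C1qa, Adgre1, Csf1r and Cd68, and tumour 28 the lowest in each. With the mean of T cell and stroma genes as a covariate the macrophage list's median turned to -0.32. Of 26 monocyte and dendritic cell genes 0 were called, and Ccr2, the receptor of inflammatory monocytes, differed by 0.13 (95% interval -0.04 to 0.30).

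**Figure D3:**
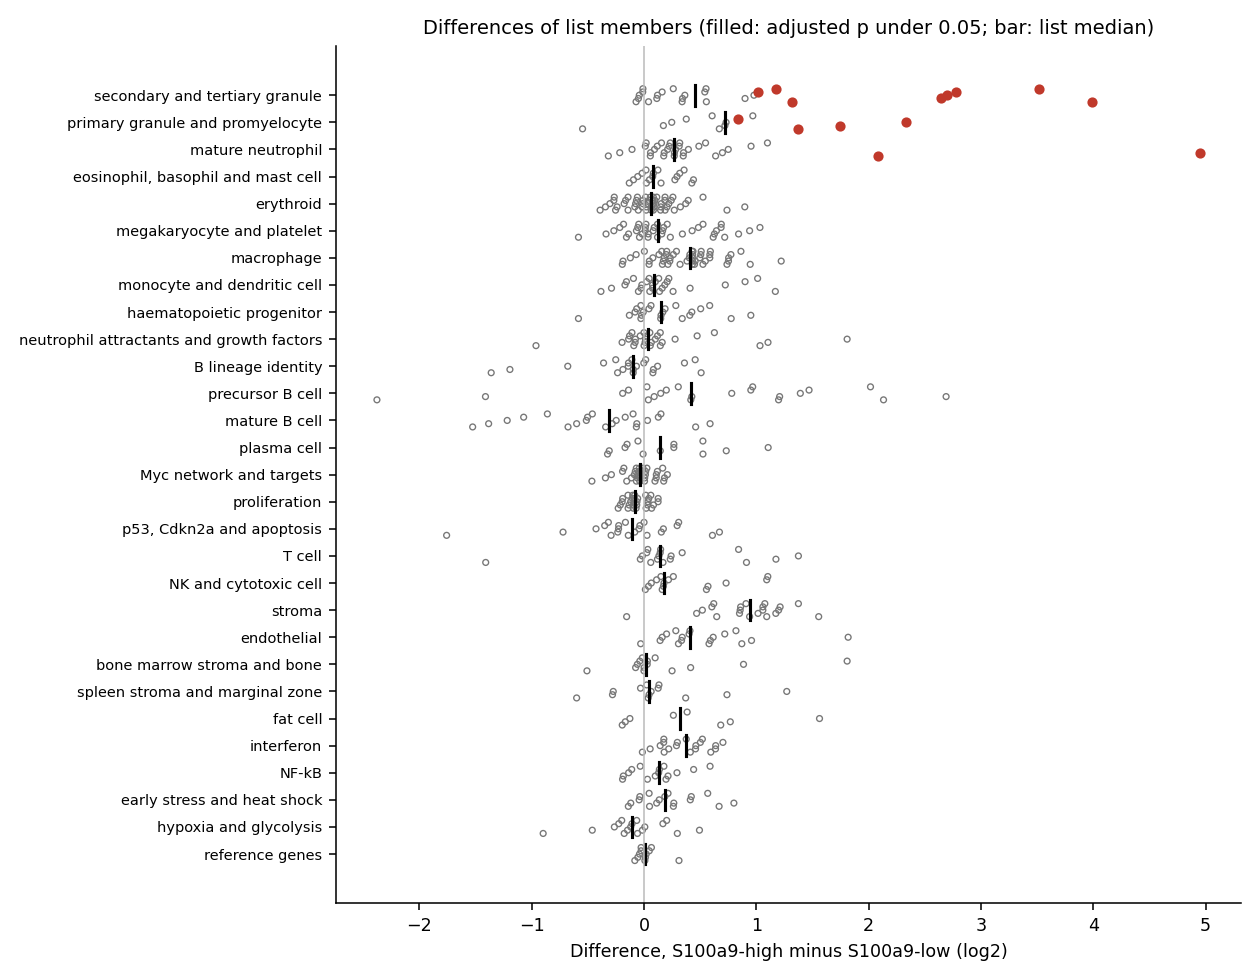
Differences in log2 level (S100a9-high minus S100a9-low) of the measured members of 29 gene lists, 1 point per gene. List medians are bars and called genes are filled. The salivary list, with the largest median (4.49) and no called gene, is left out. Filled points stand in the 3 granulocyte lists and in no other list shown.

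The lymphoma genes themselves gave 0 calls in each list. The B lineage identity list had a median difference of -0.10 over 21 genes, the precursor B cell list 0.42 over 22, the mature B cell list -0.31 over 22, the Myc network and targets -0.04 over 33, the proliferation list -0.08 over 29, and the p53, Cdkn2a and apoptosis list -0.11 over 22. Myc, the oncogene of the model, ran from 10.90 through 11.31 to 11.78 in the high set and from 11.10 through 11.42 to 12.30 in the low set (-0.18, 95% interval -0.53 to 0.17). Mki67, a proliferation marker, differed by -0.06 (95% interval -0.20 to 0.08), Pax5, the B cell identity factor, by -0.10 (95% interval -0.55 to 0.36), and Ebf1, which acts with it, by -0.14 (95% interval -0.88 to 0.61).

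Among genes of B cell stage, Vpreb1, part of the surrogate light chain of precursor B cells, ran from 5.48 through 7.53 to 11.64 in the high set and from 5.12 through 5.63 to 6.03 in the low set (2.69, 95% interval 0.79 to 4.59, limma adjusted p = 0.36). The high values were those of tumours 25 (11.64), 20 (11.41) and 16 (11.36), and the other 5 high tumours lay between 5.48 and 7.97. Rag1, a recombinase subunit, ran from 3.38 through 6.16 to 12.02 against 3.82 through 8.80 to 11.96 (-2.38, 95% interval -5.0 to 0.24, limma adjusted p = 0.56). Ms4a1, which encodes CD20, differed by -0.17 (95% interval -2.11 to 1.77). Cdkn2a, the tumour suppressor locus of p16 and Arf, ran from 3.79 through 4.58 to 5.96 against 4.14 through 5.80 to 10.79 (-1.76, 95% interval -3.80 to 0.28), with values over 10 only in the low tumours 7 (10.79) and 14 (10.70).

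**Figure D4:**
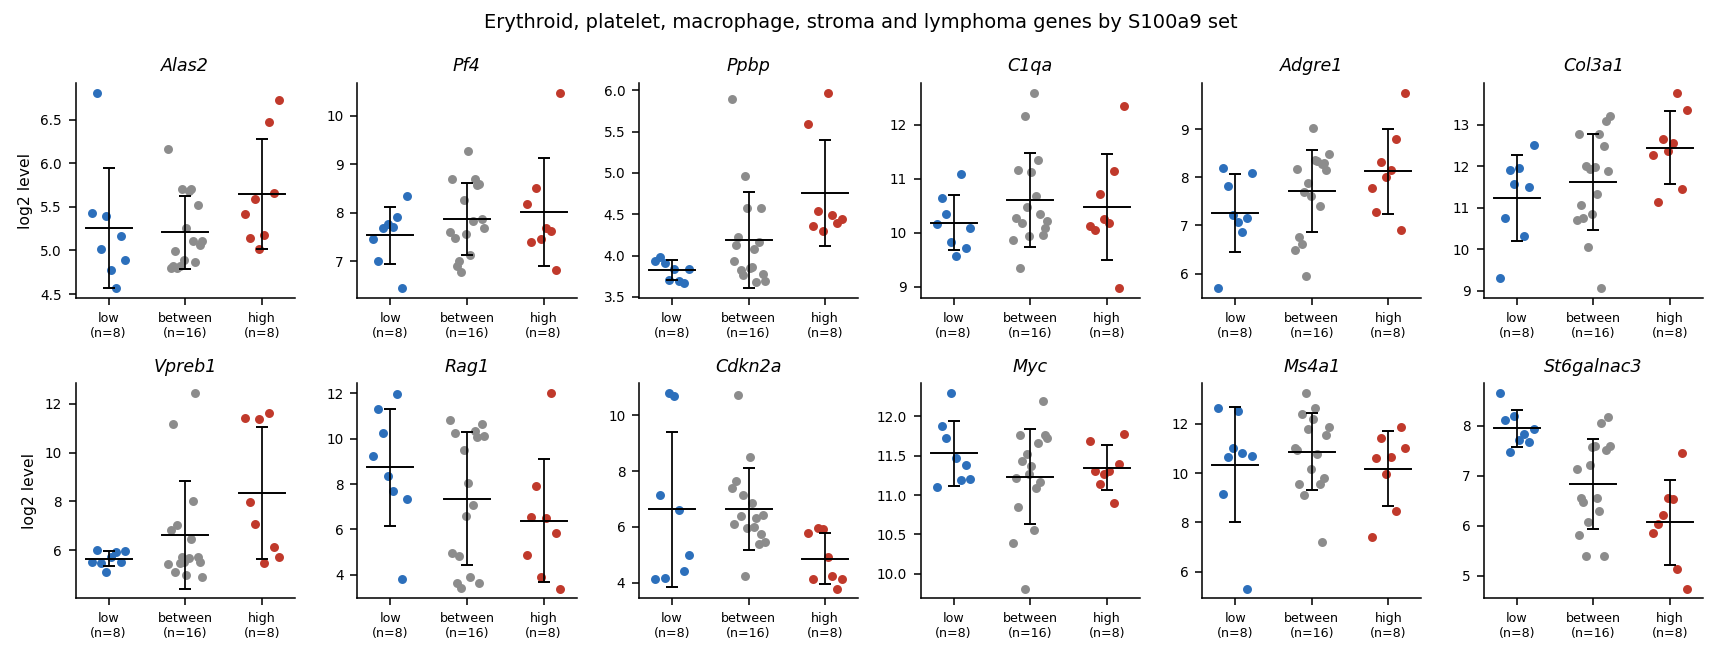
Log2 levels of erythroid (Alas2), platelet (Pf4, Ppbp), macrophage (C1qa, Adgre1), stroma (Col3a1) and lymphoma genes by set (points, 1 tumour each; line and bars, mean ± SD); each panel has its own axis. Among these 12 genes the low and high sets stand apart in Ppbp and St6galnac3, and St6galnac3 is the one that passed the test.

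Beyond the granulocyte lists 3 genes were higher. Tnfsf13b, which encodes the B cell survival factor BAFF made by myeloid and stromal cells, ran from 5.26 through 6.20 to 6.60 in the high set and from 4.59 through 4.87 to 5.78 in the low set (1.20 ± 0.19, limma adjusted p = 0.012). The overlap came from tumour 1 (5.26) and tumour 19 (5.78), and 2 other probe sets of Tnfsf13b differed by 0.16 and -0.04. Mmp3, stromelysin of connective tissue cells, ran from 6.75 through 7.95 to 9.49 against 5.20 through 5.92 to 6.75 (2.06 ± 0.36, limma adjusted p = 0.036), with the sets meeting but not overlapping at 6.75. It passed in 5 of 16 fits that left out 1 tumour. Pi16, a peptidase inhibitor family member of fibroblasts, ran from 6.58 through 7.22 to 7.82 against 5.83 through 6.26 to 6.69 (1.004 ± 0.18, limma adjusted p = 0.035), with a small overlap. It passed in 6 of the 16 such fits, and its other probe set differed by -0.14.

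Both lower genes separated the sets. St6galnac3, a sialyltransferase, ran from 4.75 through 6.13 to 7.45 in the high set and from 7.47 through 7.89 to 8.65 in the low set (-1.88 ± 0.31, limma adjusted p = 0.017). Its other probe sets differed by -1.13 and -0.14. Morn1 ran from 5.30 through 5.35 to 5.54 against 5.62 through 5.73 to 5.94, a difference of -0.35 ± 0.06 (limma adjusted p = 0.015), and its other probe sets differed by -0.46, -0.05 and 0.03. Cd55, a complement regulator of the B cell surface, ran from 6.10 through 7.06 to 7.73 against 7.35 through 8.51 to 8.95 (-1.38 ± 0.26) and missed the threshold (limma adjusted p = 0.057). The count of lower genes was 2, but 7 without tumour 28, 4 without tumour 1 and 1 without tumour 22, and the count of higher genes was 33 without tumour 28.

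Markers of other tissues were measured beside these genes. Bpifa2, a transcript of salivary gland, was either over 12 or under 5 in each of the 16 tumours, and it was high in 6 of the 8 high tumours, 3 of the 16 between and 2 of the 8 low tumours (11 of 32). Its part in the differences above was not tested beyond the fits that follow. All 10 measured salivary genes had a higher mean in the high set, with 0 called and a median difference of 4.49. Of 21 stroma genes 20 differences lay above 0, with 0 called and a median of 0.94, and the list's mean level ran from 8.001 through 8.95 to 10.21 in the high set and from 7.64 through 8.07 to 8.74 in the low set. Col3a1, a fibrous collagen, differed by 1.21 (95% interval 0.26 to 2.16, limma adjusted p = 0.39). Endothelial genes had a median difference of 0.40 over 18 and T cell genes of 0.15 over 18, each with 0 called, and Cd3g, part of the T cell receptor, differed by 1.17 (95% interval 0.35 to 1.998, limma adjusted p = 0.36). Xist, the transcript of the inactive X chromosome, was high in 3 of the 8 high tumours and 6 of the 8 low ones. The gap between 3′ and 5′ control probe sets for Gapdh and Actb, which grows as RNA breaks down, ran from 0.30 through 0.45 to 0.55 in the high set and from 0.27 through 0.32 to 0.90 in the low set.

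With Bpifa2 as a covariate 8 genes were higher (0.044%) and 0 lower, and all 8 were among the 17: S100a8, Ngp, Chil3, Camp, Ltf, Ifitm6, Mpo and Elane. With the mean of T cell and stroma genes as a covariate 9 were higher (0.0495%) and 0 lower, of which 8 were among the 17. The Ngp difference was 3.85 in the first of these fits and 4.32 in the second, against 3.98 without a covariate. St6galnac3 was -1.63 in the first and -0.99 in the second.

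A slope on the S100a9 level was also taken over tumours low and tumours high in Bpifa2, an alternative added after the data had been seen. Over the 21 low tumours 9 genes rose with S100a9 (0.0495%), and over the 11 high tumours 10 did (0.055%). The slopes of 17 of 17 genes were above 0 in both, and 6 (S100a8, Ngp, Camp, Ltf, Mpo and Ifitm6) passed in both. The high and low tumours on which the 17 were called also enter these slopes, so slopes above 0 were likely beforehand. These fits are therefore no independent support for the calls. Ngp changed by 0.69 ± 0.08 log2 per log2 unit of S100a9 in the tumours low in Bpifa2 and by 0.74 ± 0.04 in those high in it. For Chil3 the slopes were 0.72 ± 0.11 and 0.55 ± 0.15, and for Elane 0.11 ± 0.03 and 0.18 ± 0.02.

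**Figure D5:**
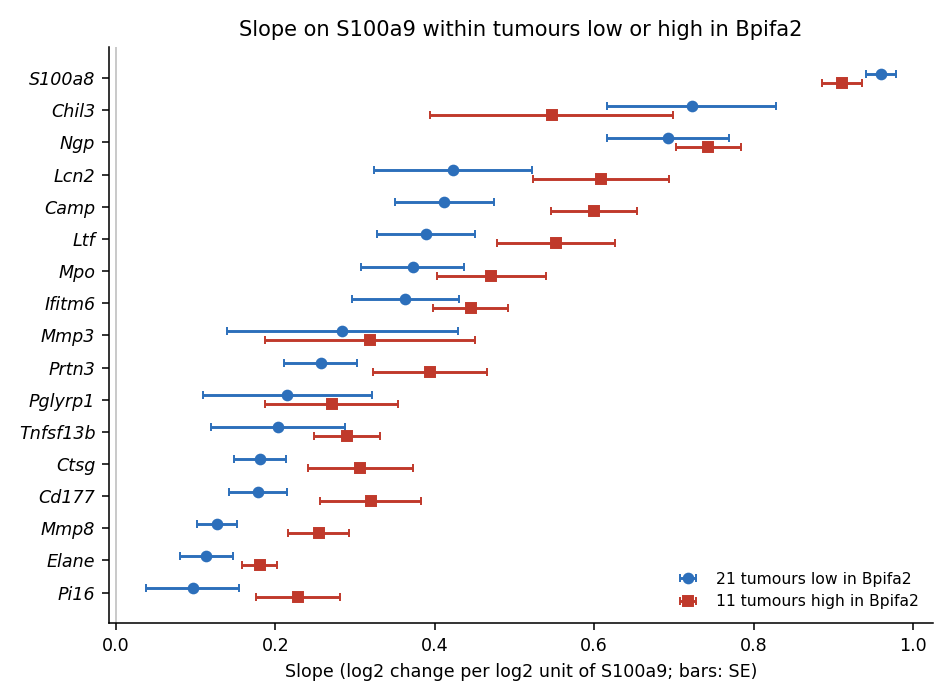
Slopes of the 17 higher genes on the S100a9 level (log2 per log2 unit, bars are SE) over 21 tumours low and 11 tumours high in the salivary transcript Bpifa2. All slopes lie above 0, and Ngp is at 0.69 and 0.74. Tumours on which the 17 genes were called are in both groups, so slopes above 0 were likely beforehand.

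Over all 32 tumours 23 genes rose with S100a9 (0.126%) and 4 fell (0.022%), and 13 of the 17 were among the 23. The granule genes Ms4a3 and Fcnb, the eosinophil gene Prg2 and the mature neutrophil genes Stfa2l1 and Lrg1 passed here. Nfe2, a transcription factor of megakaryocytes and red cells that neutrophils also make, rose by 0.12 ± 0.02 per log2 unit (limma adjusted p = 0.0068) and was the 1 call of the erythroid and of the megakaryocyte list, which share it. Fcnb, Stfa2l1, Lrg1 and Nfe2 were named after their values were seen. Over the 16 tumours between the sets S100a8 alone passed (0.0055%), and 16 of the 17 slopes were above 0. The exception was Mmp3 at -0.35. The share of all genes with a slope above 0 there was not counted.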

How the data were processed

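The deposited values are on a log2 scale, 1 per probe set and tumour. The authors computed them by RMA (affy), as the submitters' processing notes list it. RMA gives all arrays 1 distribution, so a change common to most genes would not show. No version, scan date or batch is named. Array medians lay between 5.72 and 5.80, and 0 pairs of arrays were identical.

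Of 45101 probe sets, 34945 had 1 gene symbol, 932 several, 9160 none and 64 were controls. The probe set with the highest mean stood for each of 18193 genes, with no filter on dim probe sets, since erythroid and platelet genes are dim; a filter at the median level (5.78) is given as an alternative. Listed genes without a probe set of their own are not analysed here.

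The 8 highest and 8 lowest tumours by S100a9 were compared by limma 3.58.1 (R 4.3.3; lmFit, then eBayes with defaults), leaving out S100a9, with Benjamini-Hochberg adjustment over 18192 genes and a threshold of 0.05; intervals are 95%. S100a8, the partner marker of S100a9, stayed in the fit and is counted wherever it passed; its levels in the sets are given as a description. The members, the 30 lists, the genes to name and the tests were chosen with earlier results of these data known. Named genes were a chosen set, the called list members with the largest differences (up to 3 a list and direction) and the 12 genes with the largest moderated t in each direction. Pglyrp1, Mmp3 and Pi16 were added to complete the calls.

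In simulated data with the real gene means and SDs, and 200 of 18192 genes shifted, the fit recovered 2.99% of genes shifted by 1 gene SD, 22.4% at 2 SD and 86.4% at 3 SD, and 8.64% of its calls were false. The first trial used shifts of 1 and 2 SD and recovered too few to meet its own stopping rule, so 3 SD was added and the rule was set on that size. Differences near 1 or 2 SD were therefore mostly not detectable, and a count of 0 in a list does not show that its genes were equal. Other steps used Python 3.11.15. The alternatives are 2 filters on dim probe sets, averaging all probe sets of a gene, quantile normalization again, a shift by reference genes, ranking by S100a8, slopes on S100a9, eBayes with trend and robust, 3 covariates and leaving out each of the 16 tumours.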

Additional observations from a re-analysis of the deposited data

Results flagged for a closer look

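In each set of 8 tumours, the gap between the highest or lowest value and its neighbour was divided by the set's whole range, and 16 gaps above Dixon's 95% critical value for 8 samples were found in 162 sets of values (81 genes). Chance gives about 1 in 20 sets. Tumour 30 stood apart most often within the high set. It was highest in Slc4a1 (6.942, next 5.747), Car1 (4.825), Pf4 (10.47, next 8.521), Vwf (7.904, next 6.0) and Cxcl2 (7.525, next 3.545), and lowest in Shfl (7.433). Tumour 25 was highest of the high set in Car2 (11.03) and in Slc40a1 (11.87), and tumour 1 lowest in Tnfsf13b (5.259). In the low set, tumour 22 was highest in Il1b (8.029) and Alas2 (6.807), tumour 8 in Mmp9 (7.442) and Car2 (10.63), tumour 19 in Cpa3 (5.483) and Tnfsf13b (5.781), and tumour 11 lowest in Ngp (5.221).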

How the results depend on the processing

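The count of higher genes was 17, and 11 with a filter at the median level, 2 with one at the 75th percentile, 1 over the tumours between the sets, 8 with Bpifa2 and 9 with T cell and stroma genes as a covariate, and 9 and 10 in tumours low and high in Bpifa2; leaving out 1 tumour gave 13 to 33, the last without tumour 28. The count of lower genes was 2, and in the same order 1, 0, 0, 0, 0, 0 and 1; it was 1 with the mean of probe sets, 4 after the shift by reference genes, 4 for the slope over 32 tumours and 1 to 7 leaving out 1 tumour. Secondary granule calls went from 8 to 5 and 1 under the filters, 0 between the sets, 4 and 4 with the covariates, and 4 and 5 in tumours low and high in Bpifa2 (7 to 9 leaving out 1 tumour). Primary granule calls went from 4 to 2 and 0 under the filters, 0 between the sets, 2 and 2 with the covariates and 2 in tumours high in Bpifa2 (3 to 5). Mature neutrophil calls went from 2 to 1 at the 75th percentile, 1 when ranked by S100a8, 1 between the sets and 4 over 32 tumours (2 to 4, the last without tumour 28). S100a8, 1 of the 2, was left out of the fit ranked by S100a8, so it could not be called there. The stricter filters test fewer genes. Of the 17 higher genes, 11 reached the median level and kept their calls under that filter. S100a8 (mean level 8.90) and Ngp (8.11) alone reached the 75th percentile (7.67), and both kept their calls there. The tumours between the sets span a narrower range of S100a9. Other causes were not tested.

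Lists with 0 calls gained 1 in some settings. The slope over 32 tumours gave 1 higher in the eosinophil, basophil and mast cell list, 1 in the erythroid and 1 in the megakaryocyte list, and ranking by S100a8 gave 1 higher in the NK and cytotoxic cell list. The shift by reference genes and eBayes with trend and robust each gave 1 lower in the mature B cell list. Leaving out 1 tumour gave 0 to 1 in the NK list (1 without tumour 30), the eosinophil list (1 without tumour 30 or 19) and the mature B cell list (1 without tumour 1, 28 or 29).

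Over 81 named genes and their alternatives, 2117 of 2346 values kept their direction and side of the threshold, 122 lost the threshold, 19 gained it and 2 called genes changed sign, both between the sets: Morn1 at 0.00539 and Mmp3 at -0.3474. A further 86 were sign changes of genes that were called in neither setting, which were counted apart from reversals. Of the 17 higher genes, 13 passed without each of the 16 tumours in turn. No paired analysis was possible because the labels give 1 group. Of the 17, 11 had a mean level at or above the median of probe sets.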

Other observations

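Within the S100a9-high set tumour 30 was the lowest in Ngp (9.12), Camp (7.22), Ltf (6.55), Mpo (6.23) and Elane (5.50), while 2 other granule genes were not low there, Lcn2 at 8.53 (set median 8.39) and Chil3 at 9.29, the highest of the set. It was also the highest in C1qa (12.34), C1qb (12.89), Adgre1 (9.75), Cd68 (11.81), Vcam1 (12.18), Pf4 (10.47) and Alas2 (6.73). St6galnac3 was also lowest there (4.75). The genes were picked after their values were seen. Without tumour 30 the count of higher genes was 20 and that of lower genes 3.

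Over all genes, 4 lay entirely lower in the high set (0.022%), namely both lower calls and Srsf10 and Shfl, which did not pass. Srsf10, a splicing factor, ran from 10.57 through 10.82 to 10.93 in the high set and from 10.93 through 11.07 to 11.28 in the low set (-0.31, limma adjusted p = 0.13). Shfl, an antiviral translation inhibitor, ran from 7.43 through 8.05 to 8.17 against 8.29 through 8.39 to 8.503 (-0.41, limma adjusted p = 0.17). The sets overlapped in the next genes. Thtpa, a thiamine triphosphatase, differed by -0.67 (limma adjusted p = 0.064) and Sspn, sarcospan, by -1.70 (limma adjusted p = 0.14); both fell with S100a9 over all 32 tumours.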
